A study of Bos taurus with 27 samples.

Results

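Embryos 22 and 25 are 2 cattle (Bos taurus) embryos of day 15 of pregnancy, out of 27 sequenced one by one, and both came from mothers fed an omega-6 diet. They were chosen by their measured expression: in an earlier look at the same counts they stood apart from the other omega-6 embryos. They are set here against the 9 other omega-6 embryos (numbers 18, 19, 20, 21, 23, 24, 26, 28 and 30). All 11 omega-6 embryos are classed as short. The dams of the remaining 16 embryos, 10 short and 6 long, ate an omega-3 diet, and these embryos are not among those set against the pair. The series asked how the mother's diet acts on the embryo at this stage, and no embryo of an untreated diet group was analysed here. The titles give a size number with no unit, a letter m or f and an embryo number. Neither the dams nor the handling days of the embryos are given in the sources used here, so embryos of the same dam may be among those compared.

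At this stage a cattle embryo lies free in the uterus. Most of its cells belong to the trophectoderm, the outer layer that will form the fetal part of the placenta, lengthens the embryo and signals its presence to the mother. A layer of hypoblast lines it and a small disc of epiblast will form the body. Counts from a whole embryo are shares of all its polyadenylated RNA, so fewer cells of a type and less RNA per cell cannot be told apart. The files name genes by Ensembl identifier only, and the gene table used here matched 0 of the 19994 identifiers. Lists of trophectoderm, epiblast, hypoblast, maternal blood and endometrial markers therefore could not be applied. The labelled tissue was not checked against markers, and the part of cell composition or RNA integrity in the differences was not tested.

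The labels of the 2 embryos differ from each other. Embryo 22 has size number 3.7 and the letter m, embryo 25 has size number 1.4 and the letter f, and the 9 others run from 2.1 to 7.7 with a median of 2.5. Embryo 25 is thus smaller than any of the 9, and embryo 22 lies among them. The letters fitted the counts of a gene picked as the clearest of those higher in m in the omega-3 embryos other than number 07. This gene had 754 counts in embryo 22 and 0 in embryo 25. It had 26.6 to 44.3 CPM (counts relative to the size of the library) in the 4 m embryos among the others and 0 in their 5 f embryos. Number 07, left out when the gene was picked, is labelled f and went against its letter. It had 855 counts (38.4 CPM) of this gene where the other f omega-3 embryos had 0 or 1 count. Slopes on size are therefore also given without embryo 07. Sequencing depth did not set embryos 22 and 25 apart either. Embryo 22 had 24905064 assigned reads and embryo 25 had 26654396, within the 17931620 (embryo 20) to 28560043 (embryo 18) of the others.

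What set them apart was the make-up of the libraries. CPM are given here after TMM scaling (a trimmed mean of log ratios between libraries), which assumes that most genes do not change. The TMM factor was 0.763 in embryo 22 and 0.896 in embryo 25, against 0.964 to 1.05 in the 9 others and 0.961 to 1.11 in the 16 omega-3 embryos. The rank correlation of an embryo's genes with the median profile of the others was 0.934 and 0.947, against 0.985 to 0.992 in the 9 (each compared with the remaining 8) and 0.974 to 0.992 in omega-3 embryos. The standard deviation over genes of the log2 difference from that median profile was 0.997 in embryo 22 and 0.843 in embryo 25. It was 0.405 to 0.525 in the 9 others, and the next highest of all embryos was the smallest, omega-3 embryo 14, at 0.636. Both embryos lay beyond every one of the 25 others on these 3 measures, which use the values that chose them and carry no test.

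Genes entered the comparison when they reached 1 CPM in at least 2 of the 11 omega-6 embryos, which left 11134. A gene was called lost when both embryos lay below all 9 others, and gained when both lay above them. By that rule 2870 genes were lost (25.8%) and 2688 gained (24.1%), so the pair lay together on 1 side of the others in 5558 genes (49.9%). Differences of at least 2-fold between the mean of both embryos and the median of the 9, on the log2 CPM scale, left 1377 lost genes (12.4%) and 615 gained genes (5.52%). Losses also went further: 247 genes (2.22%) were lost at least 4-fold and 28 (0.25%) at least 8-fold. Only 4 genes (0.04%) were gained at least 4-fold and 1 (0.01%) at least 8-fold. This holds for genes shifted in both embryos. In each embryo, some gene outside both sets stood further above the median of the 9 than any lost gene lay below it. The counts in this paragraph describe embryos picked for such differences and are not evidence for them.

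The balance of losses and gains depended on the scaling. With size factors as in DESeq2 the counts were 1356 lost and 634 gained, so that losses made up 68.1% of both, against 69.1% with TMM. With total counts as the only scaling they were 2151 and 130, and losses made up 94.3%. In that setting the median of all genes stood at -0.41 log2 units in embryo 22 and -0.19 in embryo 25 relative to the 9 others. Of the genes called with TMM, 1377 lost and 130 gained were called again. Whether the other gains fell short of 2-fold or came back inside the range of the 9 was not counted. Gains below are therefore gains relative to the bulk of the genes, not shown to be gains in the amount of RNA.

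**Figure D1:**
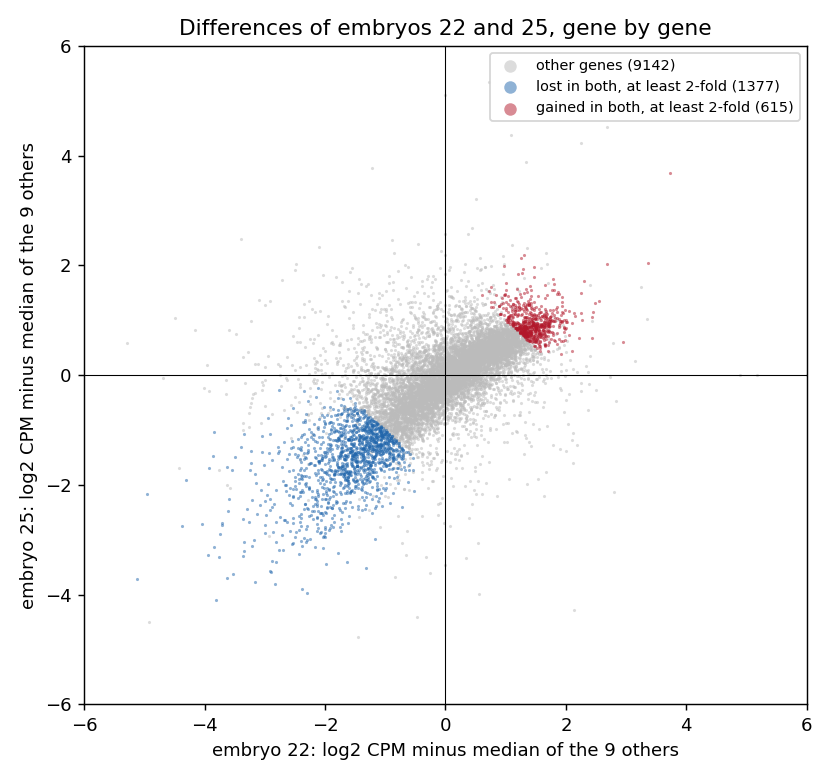
Log2 difference from the median of the 9 other omega-6 embryos, in embryo 22 (horizontal axis) and embryo 25 (vertical axis). Points are those of the 11134 genes that fall within the axis limits. Of these, 1377 were lost (blue) and 615 gained (red) at least 2-fold by the mean of both embryos. Most points lie along the rising diagonal; the blue cloud reaches further from 0 than the red.

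The 2 embryos shared the direction of their differences. Over the 11134 genes their differences from the median of the 9 correlated at r = 0.67, which describes genes measured against 1 shared reference and has no p. It was the highest among the 55 pairs of omega-6 embryos. The next was embryo 20 with embryo 25 at 0.53, and the lowest was embryo 20 with embryo 23 at -0.45. Embryos 22 and 25 were both set against the median of the 9, which holds neither of them. Each of the 9 was set against the median of the rest of the 9, which holds its partner in any pair among them. The ranking is therefore not like for like, and embryos 22 and 25 were chosen for standing apart. Few genes lay beyond the 9 on opposite sides: 98 (0.88%) were above them in embryo 22 and below them in embryo 25, and 142 (1.28%) the reverse.

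With TMM scaling, losses were of like size in both embryos, gains were not. Among the 1377 lost genes the median log2 difference was -1.51 in embryo 22 (2.85-fold) and -1.44 in embryo 25 (2.71-fold), and embryo 22 was the lower of both in 710 genes (51.6%). Among the 615 gained genes the median was 1.43 in embryo 22 (2.69-fold) and 0.91 in embryo 25 (1.88-fold), and embryo 22 was the higher in 539 (87.6%). Each embryo alone was at least 2-fold from the median in 1027 of the lost genes but in only 195 of the gained genes. Under TMM the gains of 2-fold thus rested more on embryo 22. With total counts as the scaling the median of all genes was -0.41 in embryo 22 and -0.19 in embryo 25. Comparisons between the 2 embryos in this paragraph are therefore given for TMM only. Taken alone against the 9, embryo 22 had 1788 genes lost and 1281 gained at least 2-fold, and embryo 25 had 1494 lost and 465 gained.

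Some genes went beyond the 9 in 1 embryo only. At least 2-fold and with the other embryo inside the range, 346 genes (3.11%) were lower and 252 (2.26%) higher in embryo 22. In embryo 25, 171 (1.54%) were lower and 192 (1.72%) higher. Counting instead which omega-6 embryo held the lowest value of a gene, embryo 22 did so for 2479 genes and embryo 25 for 2247. Each of the 9 others did so for 274 to 1230 genes. Embryo 22 held the highest value for 3430 genes, while embryo 25, with 1217, lay inside the 337 to 1311 of the others. That count goes to 1 embryo per gene, and embryo 22 was above embryo 25 in most gained genes. Set against the 9 alone, embryo 22 lay below all of them in 3876 genes (34.8%) and above all in 3893 (35.0%), and embryo 25 below in 3714 (33.4%) and above in 3442 (30.9%). Each embryo thus lay above the 9 about as often as below them under TMM, which balances rises against falls. With total counts as the scaling the median of all genes was -0.41 in embryo 22 and -0.19 in embryo 25. The even split is therefore given for TMM only.

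**Figure D2:**
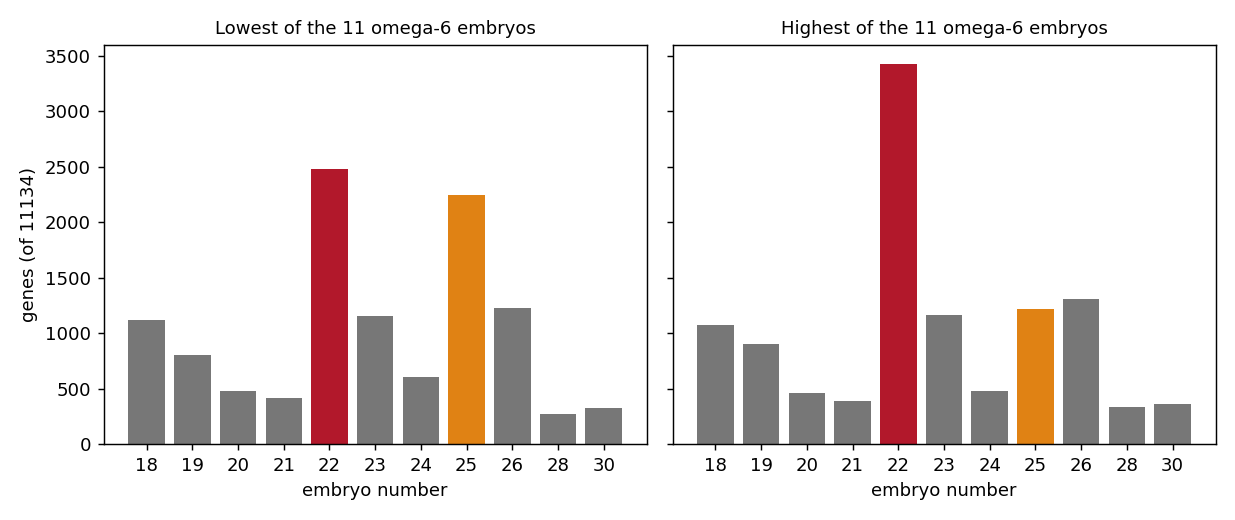
Number of genes, of 11134, for which each of the 11 omega-6 embryos held the lowest (left) or the highest (right) log2 CPM. Embryo 22 (red) leads both panels with 2479 and 3430 genes, and embryo 25 (orange) holds 2247 and 1217; each gene is given to 1 embryo, so a gene in which embryo 22 is higher still does not count for embryo 25.

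Losses and gains were counted by abundance class. Genes were put in classes by their mean CPM in the 16 omega-3 embryos, which are in neither set, so a low value in the pair does not place a gene. Of 3146 genes at 1 to 10 CPM, 449 were lost (14.3%) and 136 gained (4.32%) at least 2-fold. Of 5925 genes at 10 to 100 CPM, 804 were lost (13.6%) and 300 gained (5.06%). Both shares lie close to those of all genes, 12.4% and 5.52%. In the class of 100 to 1000 CPM, with 1587 genes, losses (113, 7.12%) and gains (127, 8.00%) were similar in number.

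The most counted class held more gains than losses with TMM. Of 111 genes over 1000 CPM, 24 were gained (21.6%) and 3 lost (2.70%) at least 2-fold. Without the fold limit 63 of them lay above all 9 others in both embryos and 9 lay below. The least counted class held 365 genes under 1 CPM, of which 28 were gained (7.67%) and 8 lost (2.19%). A gene rarely used in omega-3 embryos enters the comparison only when at least 2 omega-6 embryos raise it, so that class leans to gains by construction. With total counts as the scaling the class over 1000 CPM had 2.70% gained and 6.31% lost, and the class of 1 to 10 CPM had 1.49% gained and 20.9% lost. Losses were the more frequent at 1 to 10 CPM under TMM, DESeq2 size factors and total counts, whereas among genes over 1000 CPM gains led under the first 2 of these scalings and not under the third. The lead of gains there also rested on embryo 22: taken alone against the 9, it had 38.7% of these genes gained and 3.60% lost, while embryo 25 alone had 5.41% gained and 7.21% lost.

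Class medians were taken embryo by embryo. Over 1000 CPM the median log2 difference was 0.75 in embryo 22 and 0.37 in embryo 25, against -0.12 to 0.16 in the 9 others. At 100 to 1000 CPM it was 0.25 and 0.16, against -0.05 to 0.07. At 1 to 10 CPM it was -0.19 and -0.08, against -0.06 to 0.05, and at 10 to 100 CPM it was 0.01 and -0.06, against -0.04 to 0.02. Embryo 25 also stood high in the class under 1 CPM, at 0.48, where embryo 22 was at -0.02 and the highest of the 9 at 0.34.

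Shares of all counts need no TMM scaling. Genes of 1 to 10 CPM took 1.03% of the counts in embryo 22 and 1.21% in embryo 25, below the 1.27% to 1.43% of the 9 others. Genes of 10 to 100 CPM took 20.3% and 20.8%, below 21.8% to 23.9%. Genes over 1000 CPM took 37.1% and 36.2%, inside the 32.9% to 38.0% of the others. The 10 most counted genes of each embryo took 13.3% in embryo 22, under the 13.9% to 18.3% of the 9, and 14.5% in embryo 25. Genes under 1 CPM took 0.0259% and 0.0384%, within the 0.0247% to 0.0384% of the others. Genes of 100 to 1000 CPM took 41.5% and 41.6%, inside the 38.6% to 41.8% of the others. Both embryos thus lay outside the 9 in the classes of 1 to 10 and 10 to 100 CPM. They lay inside the range of the 9 in the lowest class and in the classes of 100 to 1000 and over 1000 CPM.

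**Figure D3:**
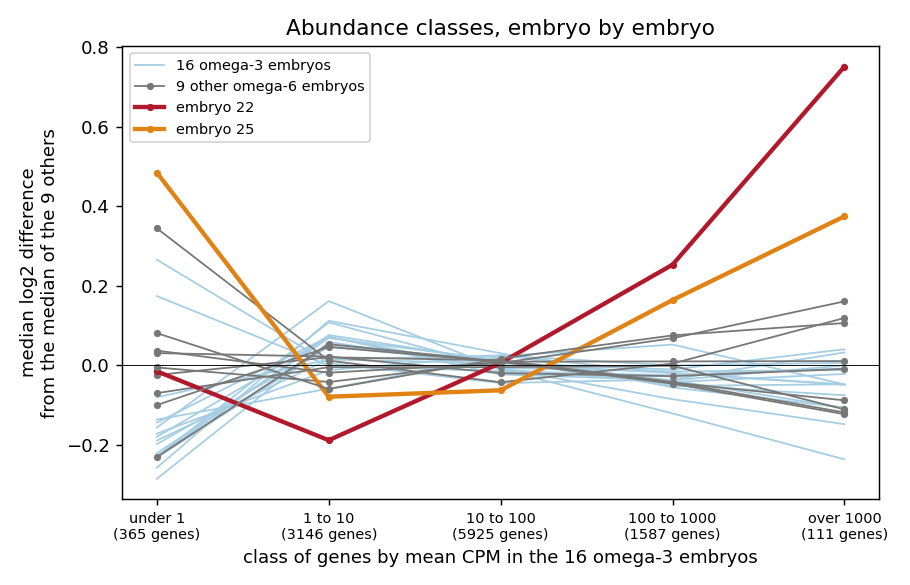
Median log2 difference from the median of the 9 other omega-6 embryos in 5 classes of genes by mean CPM in omega-3 embryos, 1 line per embryo, with omega-3 embryos in light blue. Embryo 22 (red) climbs to 0.75 and embryo 25 (orange) to 0.37 in the class over 1000 CPM, where grey lines (the 9, each against the other 8) stay between -0.12 and 0.16.

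Few transcripts vanished. Genes with 0 counts in an embryo although every one of the 9 had at least 10 numbered 2 in embryo 22 and 0 in embryo 25, against 0 to 3 in each of the 9. Only 1 of the 1377 lost genes had 0 counts in either embryo, and 145 (10.5%) were under 1 CPM in both. After thinning to 17931620 reads, the depth of the smallest library, 13113 genes kept a count in embryo 22. That is below the 13553 to 14077 of the 9 others (13826 ± 151, SD, n = 9), while embryo 25 had 13915. The loss was therefore mostly a lower level of genes still detected, and the shorter list of detected genes was that of embryo 22 alone.

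The gene with the largest loss was ENSBTAG00000010018, whose product the files do not name. It had 5 counts (0.263 CPM) in embryo 22 and 20 counts (0.838 CPM) in embryo 25. The 9 others ran from 5.68 CPM (embryo 20) over a median of 11.9 to 17.4 CPM (embryo 18), and were 11.5 ± 4.27 (SD, n = 9). Short omega-3 embryos ran from 4.72 to 20.8 CPM and long ones from 5.98 to 16.8. Every one of the 25 other embryos thus lay above both, and against the median of the 9 the gene was 45.3-fold lower in embryo 22 and 14.2-fold lower in embryo 25. The first of these folds rests on 5 reads.

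ENSBTAG00000008619 came next. It had 12 counts in each embryo, 0.632 CPM in embryo 22 and 0.503 CPM in embryo 25. The 9 others ran from 4.70 (embryo 20) over 9.93 to 13.8 CPM (embryo 26), short omega-3 embryos from 4.80 to 11.9 and long ones from 6.02 to 14.2 CPM. Again the pair lay below all 25 others, by 15.7-fold and 19.8-fold against the median of the 9. In both genes the lowest of the 9 was embryo 20 and the lowest short omega-3 embryo was embryo 05.

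Among gains ENSBTAG00000037651 led by far, as the 1 gene gained at least 8-fold. It had 3429 counts (180 CPM) in embryo 22 and 4167 counts (175 CPM) in embryo 25. The 9 others were spread widely, from 10.3 CPM (embryo 24) over a median of 13.5 to 79.4 CPM (embryo 28), with embryos 21 and 26 at 53.8 and 66.6. Short omega-3 embryos ran from 10.04 to 41.4 CPM and long ones from 20.0 to 137 CPM. Both embryos lay above all others, by 13.3-fold and 12.9-fold against the median of the 9, though much less above the highest of them. In the 16 omega-3 embryos, which the choice did not use, this gene rose with size by 0.46 ± 0.13 (SE) log2 units per doubling of the size number (edgeR adjusted p = 0.011).

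The second gain, ENSBTAG00000034138, was a gene of few counts. It had 130 counts (6.84 CPM) in embryo 22 and 64 counts (2.68 CPM) in embryo 25, against 0.0442 CPM (embryo 21) over a median of 0.59 to 2.31 CPM (embryo 23) in the 9. Short omega-3 embryos reached 3.80 CPM in embryo 05, above embryo 25, so this gain was not beyond all 25 other embryos. Its slope on size in omega-3 embryos was -0.23 ± 0.23 (SE) and did not pass (edgeR adjusted p = 0.46).

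**Figure D4:**
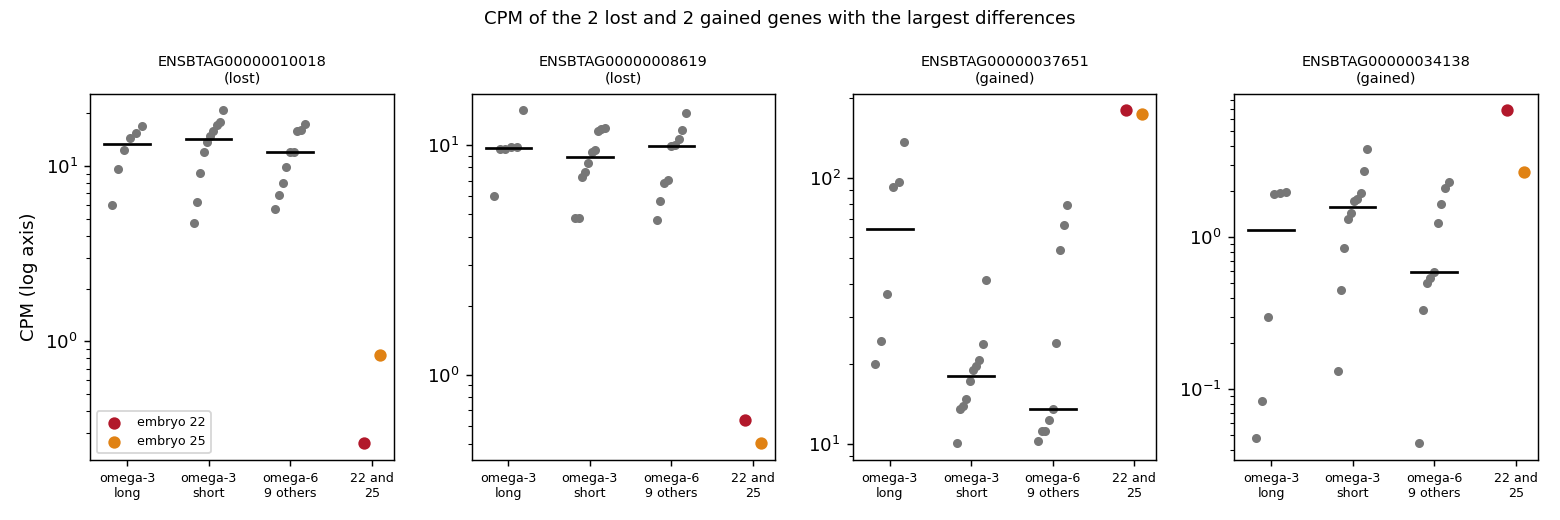
CPM (log axis) of the 2 genes with the largest losses and the 2 with the largest gains. Each point is 1 embryo, bars are medians, and embryos 22 (red) and 25 (orange) are in the last column; both lie below all other embryos in the first 2 panels and above them in the third, while embryo 25 overlaps the omega-3 short group in the last.

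Abundant genes took part as well, and are given here by rank rather than by identifier. The most counted gene lost at least 2-fold had 1525 CPM in embryo 22 and 1810 CPM in embryo 25, against 2531 to 4626 CPM (median 3901) in the 9 others. The most counted gained gene had 10131 and 10050 CPM, against 2986 to 5860 CPM (median 3920). The gap to the 9 follows from how the sets were formed. The embryos were close to each other in these genes but not in all abundant ones: the fifth most counted gained gene had 6681 CPM in embryo 22 and 3960 CPM in embryo 25, and the fifth lost gene 214 and 331 CPM.

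Of the 10 most counted genes by mean CPM in omega-3 embryos, 4 lay above all 9 others in both embryos, where 24.1% of all genes and 56.8% of those over 1000 CPM did so, none lay below them in both, and none differed 2-fold by the mean of the pair. The gene ranked 1 had 34936 CPM in embryo 22, below the lowest of the 9 (44549 CPM), while embryo 25 with 56474 CPM lay near their median of 55860. The gene ranked 6 had 23025 CPM in embryo 22, above the 9088 to 13916 CPM of the 9, and 12977 CPM in embryo 25, inside that range. For the gene ranked 5 the embryos were alike, at 18378 and 19240 CPM, both above the highest of the 9 at 16457 CPM. The gene ranked 3, which rose with size in the omega-3 embryos (slope 0.94 ± 0.08, SE, edgeR adjusted p = 1.15e-06), lay inside the range of 2874 to 31282 CPM in both, at 14284 and 4021 CPM.

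The lost and gained genes could be looked at in embryos that played no part in choosing them. Over the 16 omega-3 embryos the median log2 difference of the 1377 lost genes from the median of the 9 ran from -0.35 (embryo 05) to 0.23 (embryo 12), and that of the 615 gained genes from -0.21 (embryo 10) to 0.17 (embryo 05). Embryos 05 and 14, with size numbers 2.1 and 0.4, and long embryo 07, with 13.2, were lowest in the lost genes, at -0.35, -0.29 and -0.21. They were also highest in the gained genes, at 0.17, 0.16 and 0.12. In each of the 16 the medians of the lost and gained genes had opposite signs. TMM balances rises against falls, which bears on such signs, and its part was not tested. No omega-3 embryo came near the -1.51 and -1.44 of the pair. The genes were picked for low values in the pair, so a gap of this kind follows from the choice.

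The 9 other omega-6 embryos also differed in these genes, in no single order of size. Embryo 20, with size number 2.1, stood at -0.41 in the lost and 0.24 in the gained genes, and embryo 30, with 2.5, at -0.27 and 0.25. Embryos 18 and 19, both with size number 2.3, went the other way, at 0.22 and -0.17 and at 0.10 and -0.09. Embryo 28, with 4.9, stood at -0.13 and 0.19. Among small omega-3 embryos, numbers 12 (size number 2.6) and 13 (1.3) stood at 0.23 and 0.12 in the lost genes. Embryo 20 held the lowest value of the 9 in 760 of the 1377 lost genes (55.2%) and the highest in 212 of the 615 gained genes (34.5%), against 18.8% and 13.6% over all 11134 genes. Embryo 20 also had the shallowest library, and the part of depth in its position was not tested. In unscaled counts the lost genes took 1.57% and 2.04% of the reads of embryos 22 and 25 and 4.54% (embryo 20) to 7.35% (embryo 23) in the 9. The gained genes took 20.96% and 17.3%, against 9.15% to 12.3%. The sets were formed from these same embryos, so the direction of both gaps follows from the choice.

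**Figure D5:**
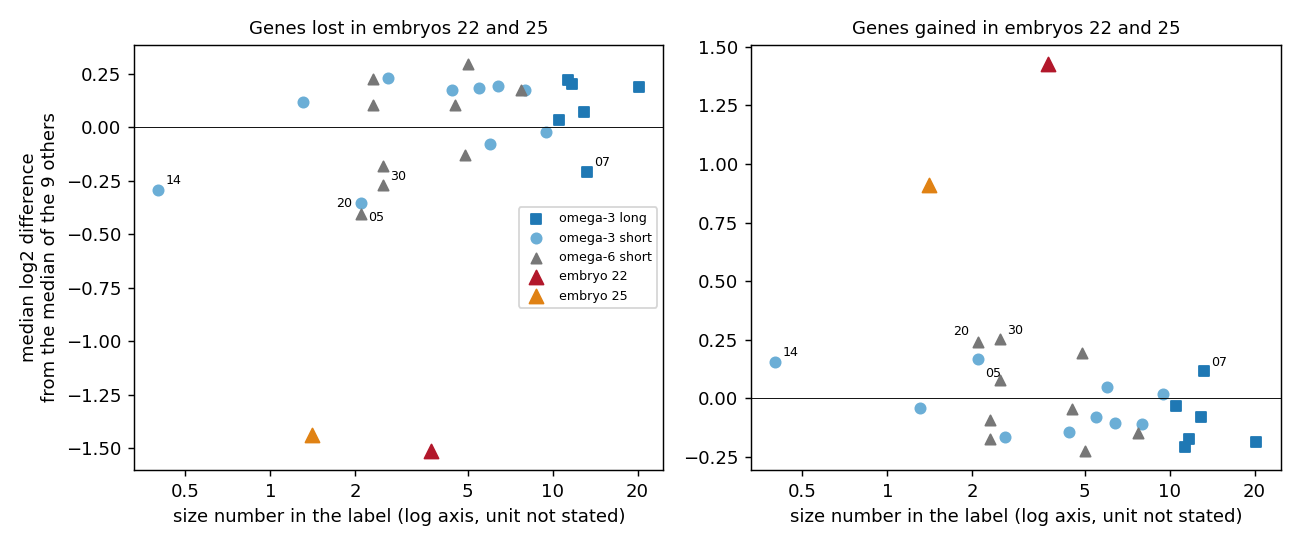
Median log2 difference from the median of the 9 other omega-6 embryos over 1377 lost (left) and 615 gained genes (right), against the size number on a log axis, for all 27 embryos. Embryos 22 (red) and 25 (orange), whose own values picked these genes, lie far from all others at -1.51 and -1.44 (left). Numbered embryos 05, 07, 14, 20 and 30 lie on the same side, much nearer 0.

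Whether these genes follow embryo size was asked in the 16 omega-3 embryos alone, with edgeR's quasi-likelihood test of the slope on log2 size number and the sex letter as covariate. Of 12297 genes tested 2115 (17.2%) rose and 2370 (19.3%) fell with size. Among the 1377 lost genes, all of them tested, 323 rose (23.5%) and 66 fell (4.79%), with a median slope of 0.05 log2 units per doubling against -0.00 for all genes. Among the 615 gained genes 44 rose (7.15%) and 182 fell (29.6%), with a median slope of -0.04. Falling genes were thus a smaller share of the losses than of all genes, and rising genes a smaller share of the gains.

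Single embryos moved these shares. Without the smallest embryo, number 14, 154 lost genes rose (11.2%, against 11.8% of all genes) and 50 fell (3.63%, against 12.9%), while 98 gained genes fell (15.9%, against 12.9%) and 36 rose (5.85%, against 11.8%). The larger share of rising genes among the losses thus ended without embryo 14, whereas the small share of falling ones stayed. Without embryo 07, 491 lost genes rose (35.7%, against 19.5%).

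The slopes were also set against the sizes of the pair. Multiplied by the distance in log2 size from the median of the 9, the omega-3 slopes gave a median of 0.03 for the lost genes in embryo 22 and -0.04 in embryo 25, where -1.51 and -1.44 were measured. For the gained genes they gave -0.03 and 0.04, where 1.43 and 0.91 were measured. The slopes of single genes in both sets went either way, and the part of size in the differences was not tested. With log2 CPM adjusted by these slopes 1337 genes were lost and 594 gained at least 2-fold, 1282 and 536 of them the same genes. Against all 25 other embryos in place of the 9, 1271 lost genes (92.3%) and 547 gained genes (88.9%) kept both embryos outside the range.

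The spread of the omega-6 group was computed with and without the pair. Since the embryos were chosen for standing apart, a smaller spread without them follows from the choice. The median over genes of the SD of log2 CPM was 0.37 in the 11 omega-6 embryos, 0.22 in the 9 and 0.23 in the 10 short omega-3 embryos. The common biological coefficient of variation that edgeR fitted around size and sex letter was 0.31 in the 11 and 0.199 in the 9, against 0.201 in omega-3. Tested for size slopes with edgeR, the 11 embryos gave 1 gene at an adjusted p below 0.05 and 1141 at an unadjusted p below 0.05. The 9 gave 11 and 1605, without embryo 22 alone there were 39 and 3164, and without embryo 25 alone 0 and 584. DESeq2 called 158 genes in the 11 embryos. Leaving out the smaller omega-6 embryo 25 also shortens the range of sizes, so these counts do not show the effect of its expression alone.

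The diet comparison of short embryos was also run with and without the pair. With all 27 embryos in the model, no gene out of 11919 passed edgeR's test (0 calls), and 1059 had an unadjusted p below 0.05. Without embryo 22 there were 0 and 339, without embryo 25 there were 0 and 471, and without both 0 and 252, where 5% of the 11869 genes then tested would be 593. DESeq2 called 2 genes with all embryos. The number of genes at an unadjusted p below 0.05 in edgeR's test was thus smaller whenever either embryo of the pair was left out. No other embryo was left out of this comparison, so whether the drop is particular to the pair was not tested. The model held no size number. Short omega-3 embryos had a median size number of 4.95 (0.4 to 9.5), and the 9 other omega-6 embryos 2.5 (2.1 to 7.7). The part of size in the diet comparison was not tested.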

How the data were processed

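RNA of 27 embryos was sequenced, 1 library each, from a stranded kit that keeps polyadenylated RNA, as single reads of 100 bases, per the labels' protocols. Alignment with STAR and counting with featureCounts are named, with no version, per the submitters' processing notes. For build, annotation and strand setting the sources used here give nothing. The authors deposited whole-number counts for 19994 genes, not normalised, with 17931620 to 29868584 reads per embryo. Reads of near-identical genes may be split between copies.

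From these counts, edgeR 4.0.16 in R 4.3.3 gave TMM factors over all 27 libraries, CPM, log2 CPM (prior count 2) and the quasi-likelihood F-tests (two-sided, filterByExpr, Benjamini-Hochberg adjustment, called below 0.05). The diet test used group and sex letter over all embryos. Each of the 9 was measured against the median of the other 8. Thinned gene numbers are expected values from vegan 2.7.1. Embryos 22 and 25, the lists and the rules were chosen with earlier results of these data known, so their contrast has no p-value. Genes named by identifier are the 2 lost and 2 gained with the largest differences. Others are given by rank, among them the 10 most counted. The most counted gene of each set was added after its values were seen. Alternatives were RLE size factors, total counts, other prior counts and filters, DESeq2 1.42.0 and leaving out embryos. Replicates are embryos, and p-values measure the spread between them. The scripts were tested on simulated data.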

Additional observations from a re-analysis of the deposited data

Results flagged for a closer look

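In 42 sets of values (per-embryo measures and the 4 genes named by identifier, each in the 9 other omega-6, the short omega-3 and the long omega-3 embryos) the highest or lowest embryo was compared with its neighbour by Dixon's ratio, which chance exceeds in about 1 set in 20. It was exceeded 3 times and never among the 9 other omega-6 embryos. The TMM factor of long omega-3 embryo 16 was 1.04, with 0.992 in the next. The genes gained in embryos 22 and 25 took 10.5% of the counts of long omega-3 embryo 07, with 9.43% in the next. ENSBTAG00000037651 measured 41.4 CPM in short omega-3 embryo 02, with 23.7 CPM in the next.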

How the results depend on the processing

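The counts of lost and gained genes stayed within 1.5 times under DESeq2's size factors, both prior counts, both filters, the size adjustment and the range of all 25 embryos. Total counts as the scaling gave 2151 lost and 130 gained. Leaving out 1 embryo at a time gave 465 gained genes (without embryo 22) to 1281 (without embryo 25). The mean of embryos 22 and 25 minus the median of the 9 was -343 detected genes after thinning and -167 genes with at least 10 counts unthinned. Embryo 22 alone made this deficit, with 13113 and 11139 genes against medians of 13857 and 11529. Embryo 25 lay above both medians, with 13915 and 11585. Size slopes in omega-3 embryos numbered 2955 without embryo 14 and 4704 without embryo 07. Of the lost genes 154 and 491 then rose, and of the gained genes 98 and 212 fell. Size slopes in omega-6 embryos numbered 158 with DESeq2, 11 without both embryos, and 0 to 39 without 1 of them. The diet comparison gave 1 gene with no filter and 2 with DESeq2. The cause of these changes was not tested. The 2 lost genes and ENSBTAG00000037651 stayed beyond the range compared, with the mean of the pair at least 2-fold from the median, in each of 19 alternatives and ENSBTAG00000034138 in 17, the exceptions being the size adjustment and the range of all 25 embryos. No paired analysis was possible because embryo numbers do not repeat across groups. The differences carry no error or p-value because the embryos were chosen on them, and depth limits values resting on few reads.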
